A study of Mus musculus with 10 samples.

Results

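A set of 40 genes of glycolysis and of the response to low oxygen was followed in 2 mouse sarcoma models measured by bulk RNA-seq. The members were taken as a list of symbols, which was chosen with earlier results of these data known. It held 25 genes of glucose uptake, glycolysis and lactate handling and 15 of the hypoxia-inducible factor (HIF) pathway and its induced genes. All 40 were found among the 56750 features of the deposited count table. The dFLEx group held 3 tumors (170019, 170024 and 170025) with the genotype dFLEx CDS +/-, meaning 1 copy of a CIC::DUX4 transgene that sits at Rosa26 behind the CAG promoter and needs both Cre and FLP. These tumors were started by electroporating pCAG-Cre and pCAG-FLPE plasmids into hind limb muscle, and the CAG promoter is active in many cell types. The KP group held 2 tumors (3800 and 3802) from a model labelled KP, whose genotype includes floxed p53 (p53fl/fl) and is not given in full here. The methods give the age of dFLEx mice at electroporation only as a range of some weeks, and how the KP tumors were induced and the age of KP mice were not given in the sources used here, and no normal tissue was compared. Each tumor's RNA was split into 2 libraries, 9 of the 10 labelled libraries were analysed, and libraries of a tumor were summed, which left 3 tumors against 2.

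Glycolysis splits glucose into pyruvate in a series of cytosolic steps, and most steps are served by paralogous isoenzymes with different tissue patterns, for instance the muscle forms Pfkm, Eno3 and Pgam2 and the neural forms Aldoc and Eno2. When oxygen is low, the prolyl hydroxylases Egln1 and Egln3 no longer mark the HIF alpha subunits Hif1a and Epas1 (HIF-2 alpha) for destruction, and the stabilized subunit pairs with Arnt and binds hypoxia response elements next to genes of glycolysis, pH control and angiogenesis. The alpha subunits are controlled mainly as proteins, so their transcripts do not measure the activity of the pathway.

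The tumors differed in depth and makeup. Summed totals ran from 20503474 counts in 3802 to 82138251 counts in 170025. The transgene was counted at 105, 202 and 423 CPM in 170019, 170024 and 170025, and it had 0 counts in 3800 and 6 counts in 3802, as the labels would have it. Here CPM stands for counts scaled to a common total with TMM, which corrects for differences in composition. Levels of different genes were compared as CPM per kb of exonic length, while near-identical copies, Eno1b among them, are also given without that division. The 15 myocyte markers, such as Acta1 and Ckm, summed to 10504 CPM or more in dFLEx tumors, with 39381 CPM in 170024, and to 1875 and 4931 CPM in 3800 and 3802. Of these, 14 of 15 had a log2 fold change above 0. In bulk RNA, more cells of a type and more RNA per cell cannot be told apart.

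The promoters of 5 genes show the letters through which HIF is known to bind. The search was for the hypoxia response element cores ACGTG and GCGTG on both strands in the 300 bases upstream of the Ensembl canonical start (GENCODE M39, GRCm39), and matches may overlap, since CACGTG holds a core on each strand. The genes shown, Ldha (lactate dehydrogenase A), Bnip3 (a mitophagy receptor), Ankrd37 (an ankyrin repeat protein induced by hypoxia), Adm (the vasodilator peptide adrenomedullin) and P4ha2 (a collagen prolyl hydroxylase), had at least 2 matches and no overlap between the groups. They are examples and not a pattern of the set, since 6 of the 15 genes higher in every dFLEx tumor (40%) held at least 2 matches, against 12 of the 22 genes that overlapped (54.5%) and 47.5% of all members. The sixth is Pfkm, and Slc16a1, lower in every dFLEx tumor, held 3. Capitals mark the cores, and each sequence reads 5′ to 3′ on the strand of the gene.
Ldha, chr7:46494963-46495262, plus strand: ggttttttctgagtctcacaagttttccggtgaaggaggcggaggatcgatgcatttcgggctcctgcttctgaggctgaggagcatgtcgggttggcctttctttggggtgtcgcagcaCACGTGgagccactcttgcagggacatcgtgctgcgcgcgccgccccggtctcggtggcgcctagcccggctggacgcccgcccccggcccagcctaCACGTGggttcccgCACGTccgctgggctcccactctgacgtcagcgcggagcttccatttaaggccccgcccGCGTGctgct
Bnip3, chr7:138511254-138511553, minus strand: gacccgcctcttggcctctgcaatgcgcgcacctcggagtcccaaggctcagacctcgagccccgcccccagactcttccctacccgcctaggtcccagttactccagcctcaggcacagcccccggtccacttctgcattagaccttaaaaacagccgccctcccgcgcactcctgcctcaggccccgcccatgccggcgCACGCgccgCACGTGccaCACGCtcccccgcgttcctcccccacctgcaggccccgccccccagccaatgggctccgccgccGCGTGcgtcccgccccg
Ankrd37, chr8:46452906-46453205, minus strand: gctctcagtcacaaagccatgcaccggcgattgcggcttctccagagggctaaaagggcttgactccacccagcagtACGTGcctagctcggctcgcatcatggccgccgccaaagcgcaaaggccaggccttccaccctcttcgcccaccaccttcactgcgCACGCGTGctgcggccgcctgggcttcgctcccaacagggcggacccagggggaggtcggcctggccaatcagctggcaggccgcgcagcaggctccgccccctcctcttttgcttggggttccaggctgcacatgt
Adm, chr7:110226558-110226857, plus strand: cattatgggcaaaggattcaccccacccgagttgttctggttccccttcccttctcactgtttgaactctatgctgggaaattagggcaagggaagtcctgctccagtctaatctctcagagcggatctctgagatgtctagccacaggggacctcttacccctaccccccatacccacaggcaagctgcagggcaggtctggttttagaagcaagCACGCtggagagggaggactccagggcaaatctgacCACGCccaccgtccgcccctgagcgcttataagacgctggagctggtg
P4ha2, chr11:53991450-53991749, plus strand: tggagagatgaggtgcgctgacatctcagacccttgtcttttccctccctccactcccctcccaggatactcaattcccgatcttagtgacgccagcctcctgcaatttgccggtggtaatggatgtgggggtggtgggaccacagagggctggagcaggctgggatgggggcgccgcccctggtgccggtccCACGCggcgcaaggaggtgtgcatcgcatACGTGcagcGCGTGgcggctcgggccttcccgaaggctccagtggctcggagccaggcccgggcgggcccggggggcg

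The Ldha window held 6 matches and the Bnip3 window 5. Ankrd37 and P4ha2 had 3 each and Adm had 2. Over all 40 genes, 28 windows (70%) held at least 1 match and 19 (47.5%) held 2 or more, while of 21757 protein-coding promoters 45.1% held at least 1 and 21.2% held 2 or more. Among the 15 hypoxia genes 13 held a match, and among the 25 glycolysis genes 15 did. Aldoc, Car9, Slc2a3 and Gpi1 had none in this window. The choice of window mattered for single genes. In the RefSeq windows (GRCm38.p6, 250 bases before to 50 bases after the start), which were given for 35 of the 40 genes, Aldoc had 3 matches, Car9 had 1 and 29 genes had at least 1, against 43.8% of 27025 promoters. A match is a description of letters and not a bound site.

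**Figure D1:**
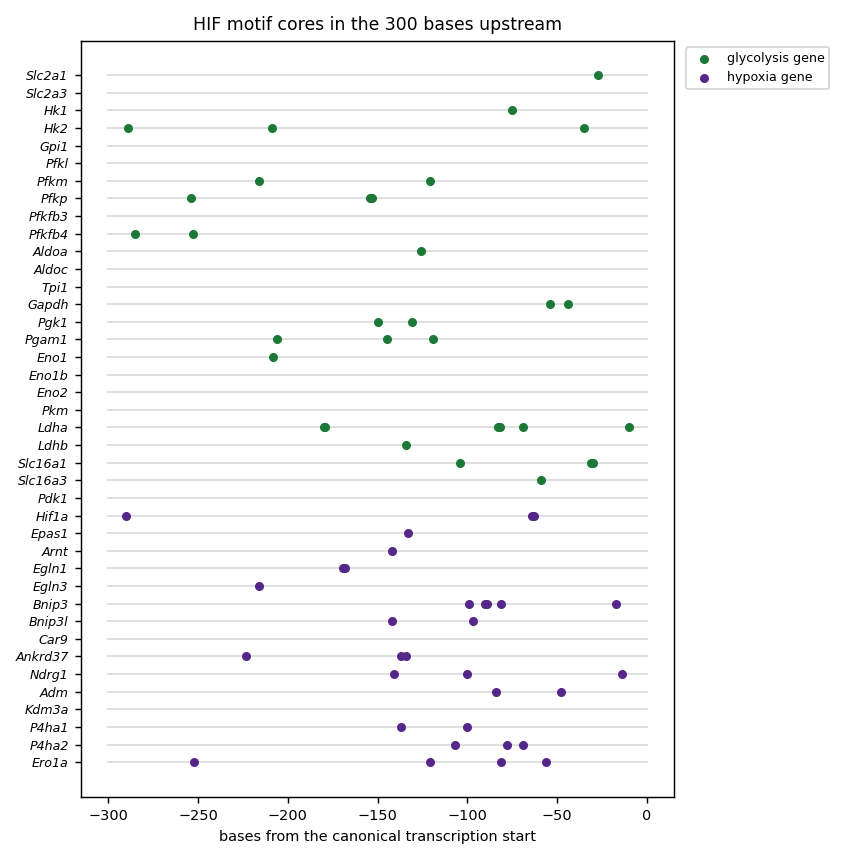
Positions of the hypoxia response element cores in the 300 bases upstream of the canonical start of each of the 40 genes, with 0 at the start on the horizontal axis. Points are matches on either strand, green for glycolysis genes and purple for hypoxia genes, and 28 of the 40 lines carry at least 1 point.

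The comparison asked how the CIC::DUX4 tumors differ from sarcomas of another driver, here for these 40 genes. Since the list was chosen with earlier results of these data known, its shares beside those of all tested genes are descriptive only. A single gene, Eno1b, passed an adjusted p of 0.05 in edgeR over all 24743 tested genes, and it was lower in dFLEx tumors. Over all tested genes 0.182% passed. Most of the others pointed the other way, since 33 of 40 had a log2 fold change above 0, against 43.7% of all tested genes. The dFLEx tumors were all above both KP tumors in 15 genes and all below them in 3, where the shares over all tested genes were 13.7% and 11.7%. The 15 are Slc2a3, Gpi1, Pfkl, Pfkm, Aldoa, Aldoc, Eno1, Ldha, Ldhb, Epas1, Bnip3, Car9, Ankrd37, Adm and P4ha2, and the 3 are Eno1b, Eno2 and Slc16a1. Before adjustment 12 genes had a p under 0.05, 10 higher and 2 lower, or 30% of the members against 10.6% of all tested genes. Other fits called more members beside a larger background. The shares for DESeq2 and for edgeR without a filter are over 44379 and 44382 genes, which include genes that the filter removed from the main fit. DESeq2 on tumor sums called 6 members and 3.16% of its genes, limma-voom with tumors as random effects 7 and 2.78%, edgeR without a filter 4 and 1.98%, edgeR with a mean of at least 1 CPM 3 and 0.521%, edgeR with trends in GC content and length removed 3 and 0.746%, and edgeR on the 9 libraries as if independent 13 and 17.1%.

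The median log2 fold change was 0.77 over the 40 genes, 0.59 over the glycolysis genes and 1.38 over the hypoxia genes, against -0.18 over all tested genes. The size of this gap rested on single tumors. Without 3802 the medians were 0.52 over the members and 0.34 over all tested genes. Without 3800 they were 1.66 and -0.07, and without 170025 they were 0.51 and -0.26. Under library totals in place of TMM the median was 0.50 over the members, with 28 of 40 above 0, and -0.47 over all tested genes. In the fit restricted to the 15364 genes at a mean of at least 1 CPM, the gap was smaller. There the medians were 0.63 over the members and -0.04 over all genes tested, and 30 of 40 members were above 0 against 48% of those genes.

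**Figure D2:**
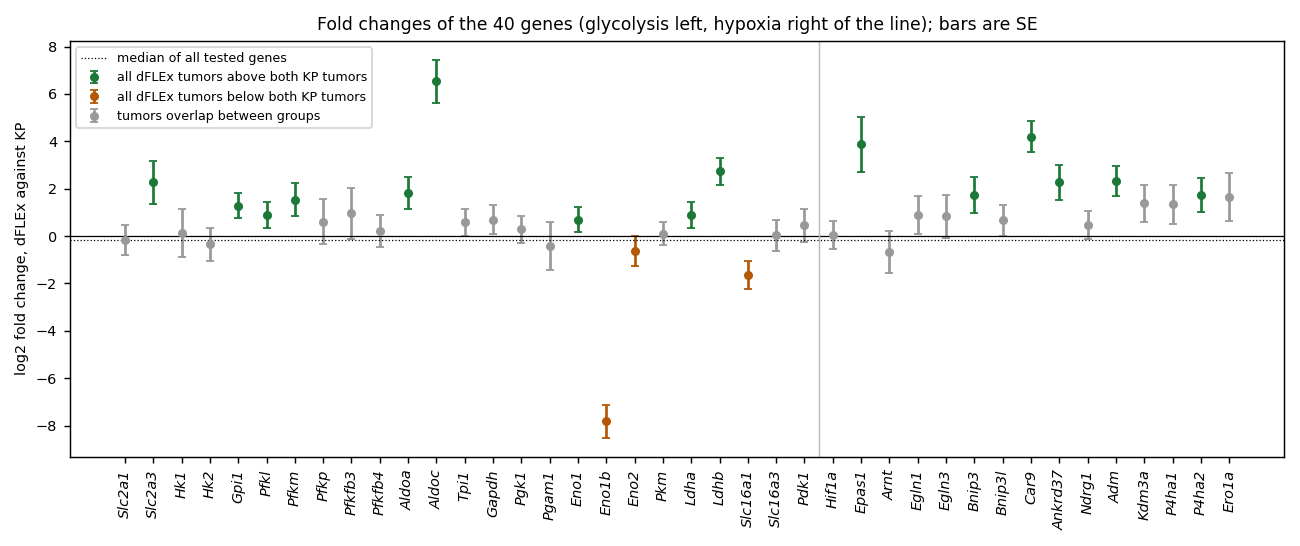
Log2 fold change of dFLEx against KP tumors for the 40 genes, from edgeR on 3 against 2 tumors, with SE as bars. Green points are the 15 genes with every dFLEx tumor above both KP tumors, orange points the 3 with every dFLEx tumor below, gray points overlap, and the dotted line is the median of all tested genes at -0.18.

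Among glucose transporters, Slc2a3 (GLUT3) stood higher in the dFLEx tumors and Slc2a1 (GLUT1) overlapped. Slc2a1, the more abundant of the pair per kb, had 81.5, 113 and 159 CPM in 170019, 170024 and 170025, and 194 and 70.3 CPM in 3800 and 3802. The KP tumors enclosed the dFLEx tumors. Slc2a3, a high-affinity transporter best known from neurons, had 20.6, 27.8 and 84.7 CPM in the dFLEx tumors and 13.9 and 4.43 CPM in the KP tumors. The groups did not overlap, the lowest dFLEx tumor being 1.48-fold above the highest KP tumor, and the log2 fold change was 2.27 (SE 0.90, adjusted p 0.42, edgeR). For Slc2a1 it was -0.17 (SE 0.64).

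Hexokinases, which trap glucose as its phosphate, differed more between tumors of 1 group than between groups. Hk2, the inducible form, had 66.2, 125 and 110 CPM in the dFLEx tumors and 55.4 and 200 CPM in the KP tumors, and its log2 fold change was -0.35 (SE 0.68). Hk1, the housekeeping form, ran from 54.7 to 253 CPM in dFLEx tumors and was 224 CPM in 3800 and 23.0 CPM in 3802, a 9.74-fold gap within KP. The 2 KP tumors thus had opposite hexokinase profiles. Hk2 made up 26.1% of the summed hexokinase counts per kb in 3800 and 92.6% in 3802, and 38.4% to 65.1% in dFLEx tumors.

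Gpi1, which turns glucose 6-phosphate into fructose 6-phosphate, was evenly high in the dFLEx tumors. It had 1026, 1242 and 1099 CPM there and 362 and 559 CPM in 3800 and 3802. Every dFLEx tumor was at least 1.84-fold above the higher KP tumor, with a log2 fold change of 1.29 with SE 0.53 (adjusted p 0.446, edgeR). Of the phosphofructokinases, which catalyze the committed step, Pfkm (the muscle form) had 152, 575 and 256 CPM in the dFLEx tumors and 106 and 120 CPM in the KP tumors. These did not overlap, and 170024, the tumor with the highest summed myocyte markers, stood highest (log2 fold change 1.54, SE 0.71). Pfkl, the liver form, did not overlap either, with 331 to 357 CPM in dFLEx tumors against 134 and 239 CPM in KP tumors. At the closest, dFLEx and KP tumors were 1.39-fold apart for Pfkl and 1.27-fold apart for Pfkm. Pfkp, the platelet form, overlapped, with 10.8 to 77.4 CPM and 11.8 to 35.9 CPM. Pfkfb3, which makes the phosphofructokinase activator fructose 2,6-bisphosphate, ran from 8.41 CPM in 170019 through 47.4 CPM in 170024 to 72.4 CPM in 170025, and had 38.3 and 5.53 CPM in 3800 and 3802. Its paralog Pfkfb4 had 8.06 to 20.9 CPM in dFLEx tumors and 10.4 to 16.6 CPM in KP tumors. Both overlapped between groups.

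The aldolase Aldoc had the largest positive log2 fold change among the members, although it missed the threshold. Aldoc (chromosome 11, 78213794 to 78218607), the aldolase best known from brain, had 484 CPM in 170019, 421 CPM in 170024 and 391 CPM in 170025. In 3800 it had 7.38 CPM and in 3802 it had 1.87 CPM, from 549 and 46 counts. At the closest, dFLEx lay 53.0-fold over the higher KP tumor, and the dFLEx tumors lay within 1.24-fold of each other. On the log2 scale Aldoc was higher by 6.54 (SE 0.91, adjusted p 0.0517, edgeR), with 5.89 to 8.01 when tumors were left out 1 at a time. It passed in edgeR under DESeq2 size factors (adjusted p 0.0461), upper quartile scaling (0.0476), a mean of at least 1 CPM (0.0374) and no filter (4.85e-07). Aldoc also passed with trends in GC content and length removed (adjusted p 0.0259, edgeR) and in DESeq2 on tumor sums (adjusted p 3.9e-15). In edgeR it did not pass under library totals (adjusted p 0.0611) or without 170019 (0.183), 170024 (0.178) or 170025 (0.0778). Leaving out 3800 or 3802 left 1 KP tumor, with log2 fold changes of 8.01 and 5.89. Aldoa, the muscle and general form and the most abundant member per kb (853 CPM per kb over all tumors), had 2734, 5660 and 2043 CPM in dFLEx tumors against 731 and 1243 CPM in KP tumors. The groups did not overlap, 170024 was again highest, and the log2 fold change was 1.82 (SE 0.66, adjusted p 0.369, edgeR).

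The middle and lower steps were abundant in both groups and mostly overlapped. Tpi1, triosephosphate isomerase, had 1414, 1649 and 1000 CPM in dFLEx tumors against 609 and 1191 CPM in KP tumors. Gapdh, the dehydrogenase that yields the glycolytic NADH, had 1602, 3042 and 2650 CPM against 2142 and 875 CPM. Pgk1, the first ATP-forming enzyme, had 651, 671 and 712 CPM against 796 and 317 CPM. In all 3 genes a KP tumor lay inside or above the dFLEx range, and 3802 was the lowest tumor for Gapdh and Pgk1 but not for Tpi1. Their log2 fold changes were 0.59 (SE 0.57), 0.69 (SE 0.61) and 0.28 (SE 0.58) in that order. Pgam1, phosphoglycerate mutase, varied most within KP, with 281 CPM in 3800 and 21.3 CPM in 3802, a 13.2-fold gap, and had 70.9, 60.2 and 205 CPM in the dFLEx tumors. Its log2 fold change of -0.43 (SE 1.02) turned to 2.57 without 3800. Gapdh and Pgk1 have near-identical transcribed copies (85 and 4 at 95% identity or more over at least 300 bases). The listed counts of these copies summed to at most 83.0 CPM for Gapdh and 1.54 CPM for Pgk1 in any tumor. Reads with several alignments were not counted, so these sums do not show how many reads either gene lost. Aldoa, Pgam1, Pkm and Ldha, among others, have such copies as well.

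Enolase gave the single gene past the threshold. Eno1b (chromosome 18, 48178402 to 48181479), a retrotransposed copy of the enolase Eno1, had 0.896, 0.832 and 1.21 CPM in 170019, 170024 and 170025, from 36, 48 and 96 counts. In 3800 it had 289 CPM and in 3802 it had 154 CPM. The lower KP tumor was 127-fold above the highest dFLEx tumor, and the log2 level fell by 7.82 (SE 0.70, adjusted p 0.0245, edgeR). Leaving out tumors 1 at a time gave -8.18 to -7.12, and Eno1b did not pass without 170019 or without 170024, where no gene of the table passed and 1939 and 1414 genes had an unadjusted p under 0.05. Eno1b and Eno1 transcripts are 99.5% identical over 1736 bases, and reads with several alignments were not counted, so the split of reads between them is uncertain. Eno1 itself had 1203, 1005 and 1200 CPM in dFLEx tumors against 910 and 493 CPM in KP tumors, each dFLEx tumor above both KP tumors by at least 1.10-fold (log2 fold change 0.70, SE 0.54, adjusted p 0.82, edgeR). Summed, the pair had 1204, 1006 and 1201 CPM against 1199 and 647 CPM. Of these summed counts Eno1b made up 24.1% in 3800, 23.7% in 3802 and at most 0.101% in any dFLEx tumor. Of their counts per kb it made up 47.7% in 3800, 47.1% in 3802 and at most 0.288% in any dFLEx tumor. The per-kb shares divide by exonic lengths of 5379 bases for Eno1 and 1877 bases for Eno1b. On the sum the groups differed by a log2 fold change of 0.30 (adjusted p 0.934, edgeR). Eno2, the neuronal enolase, was scarce, with 2.41 to 2.98 CPM in dFLEx tumors against 3.47 and 5.04 CPM in KP tumors, below both in every dFLEx tumor.

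Pyruvate kinase was level and the lactate dehydrogenases differed by isoform. Pkm, which forms pyruvate, had 2124, 2816 and 2500 CPM in dFLEx tumors against 2583 and 1998 CPM in KP tumors (log2 fold change 0.11, SE 0.49), and its sign depended on the scaling. Ldha, which reduces pyruvate to lactate, had 2248, 2286 and 1432 CPM against 868 and 1270 CPM. It was higher in each dFLEx tumor by a margin of 1.13-fold or more (log2 fold change 0.90, SE 0.54, adjusted p 0.706, edgeR). Ldhb (chromosome 6, 142435975 to 142453683), whose subunit favors the oxidation of lactate, had 166, 170 and 147 CPM in the dFLEx tumors and 20.6 and 27.8 CPM in the KP tumors. At the closest, dFLEx lay 5.30-fold over the highest KP tumor, with a log2 fold change of 2.73 with SE 0.58 (adjusted p 0.123, edgeR) that kept between 2.66 and 2.98 with any tumor left out. It passed in DESeq2 on tumor sums (adjusted p 0.00207) and in limma-voom (adjusted p 0.00287).

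Lactate transport and pyruvate entry completed the glycolytic set. Slc16a1 (MCT1), a lactate and pyruvate carrier, was lower in every dFLEx tumor than in either KP tumor, with 25.5, 34.1 and 35.1 CPM against 139 and 57.1 CPM. The lower KP tumor lay 1.62-fold above the highest dFLEx tumor, and the log2 fold change was -1.63 (SE 0.60, adjusted p 0.372, edgeR). Slc16a3 (MCT4), the exporter of lactate-making cells, overlapped, with 322, 222 and 167 CPM against 109 and 356 CPM (log2 fold change 0.03, SE 0.67). Pdk1, the kinase that shuts pyruvate out of the citric acid cycle, overlapped as well, with 54.0, 47.5 and 104 CPM in dFLEx tumors against 75.0 and 24.2 CPM in KP tumors. Its log2 fold change was 0.46 (SE 0.70).

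**Figure D3:**
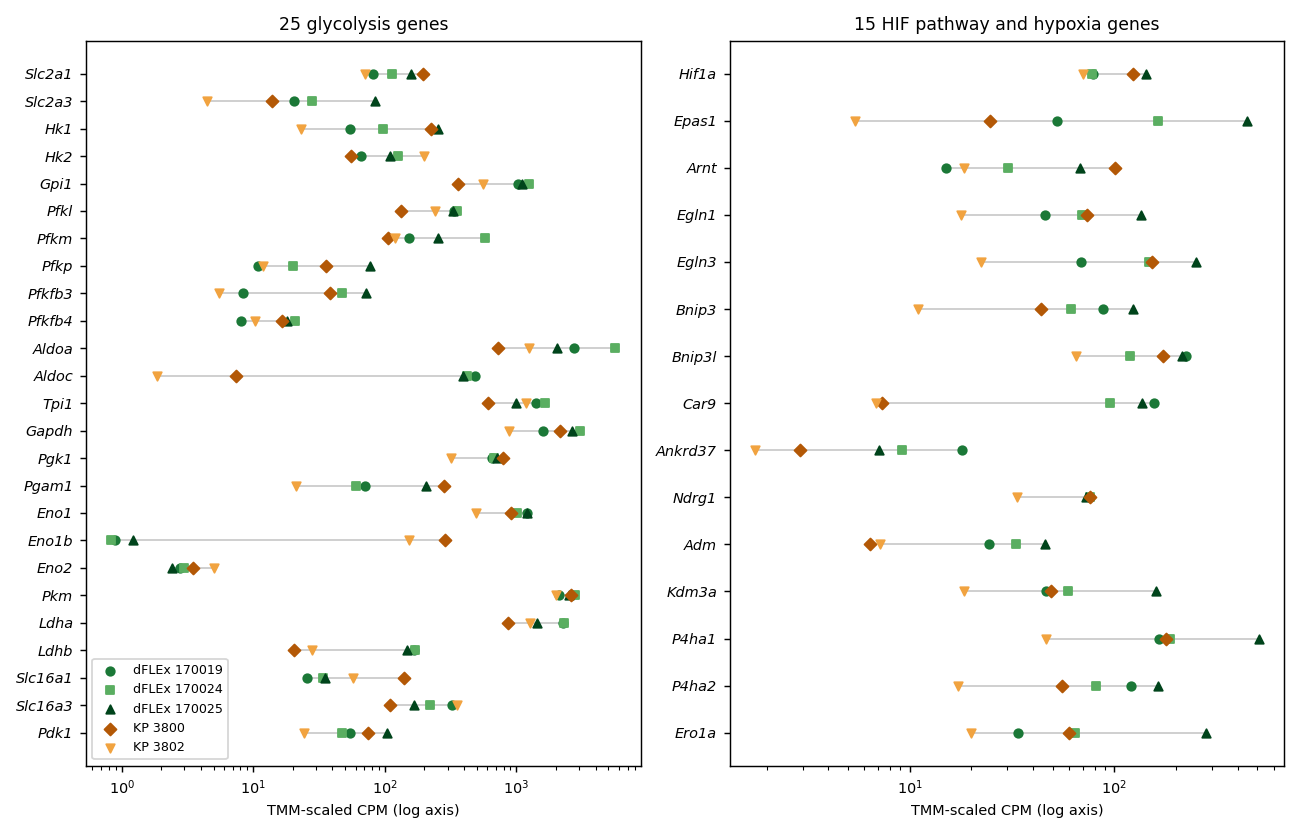
Level of each of the 40 genes in each tumor, as TMM-scaled CPM on a log axis, with the 25 glycolysis genes on the left and the 15 hypoxia genes on the right. Green symbols are the 3 dFLEx tumors, orange symbols the 2 KP tumors, gray lines span the 5 tumors, and the symbols of Aldoc, Car9, Ldhb and Eno1b fall in separate green and orange groups.

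Of the HIF subunits, Epas1 was higher in each dFLEx tumor, while Hif1a and Arnt overlapped. Hif1a had 78.6, 77.6 and 143 CPM in the dFLEx tumors and 123 and 70.4 CPM in the KP tumors, giving a log2 fold change of 0.04 (SE 0.59) whose sign changed with the scaling. Epas1 (chromosome 17, 87061128 to 87140838), the HIF-2 alpha gene and an endothelial transcript in many tissues, had 52.2 CPM in 170019, 164 CPM in 170024 and 443 CPM in 170025, and the KP tumors 3800 and 3802 had 24.7 and 5.40 CPM. All dFLEx tumors were higher, by 2.11-fold at the closest, but they spread 8.49-fold among themselves. The log2 fold change was 3.87 (SE 1.15, adjusted p 0.256, edgeR), with 2.84 at the lowest when a tumor was left out. It passed in DESeq2 on tumor sums (adjusted p 0.00156). The 8 endothelial markers summed to 326, 388 and 566 CPM in 170019, 170024 and 170025 and to 185 and 207 CPM in 3800 and 3802, 8 of 8 with a log2 fold change above 0, and their part in the Epas1 values was not tested. Arnt, the shared partner of both alpha subunits, had 15, 30.2 and 67.7 CPM against 101 and 18.3 CPM and overlapped (log2 fold change -0.67, SE 0.89).

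The oxygen-sensing hydroxylases followed the spread between tumors. Egln1 (PHD2), the main HIF hydroxylase in normal oxygen, had 45.7, 69.3 and 135 CPM in dFLEx tumors against 73.1 and 17.7 CPM in KP tumors (log2 fold change 0.88, SE 0.80). Egln3 (PHD3), itself induced by HIF, had 68.7, 148 and 251 CPM against 152 and 22.3 CPM (log2 fold change 0.84, SE 0.91). In both genes 170025 was highest, 3802 was lowest, and 3800 lay inside the dFLEx range. The mitophagy receptor Bnip3 had 87.5, 61.5 and 123 CPM in dFLEx tumors against 44 and 11 CPM in KP tumors, without overlap (log2 fold change 1.72, SE 0.76, adjusted p 0.491, edgeR). Its relative Bnip3l had 225, 119 and 215 CPM against 172 and 64.6 CPM and overlapped (log2 fold change 0.66, SE 0.65). For Bnip3 the closest dFLEx and KP tumors were only 1.4-fold apart. Bnip3 has 8 similar transcribed copies, 7 of them counted, at 95% identity or more over at least 300 bases. These copies summed to 14.1, 13.3 and 19.5 CPM in dFLEx tumors and to 28.3 and 15.1 CPM in 3800 and 3802. Of the exonic bases of Bnip3 22.25% lie over Gm45507. The part of the copies in the Bnip3 values was not tested.

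Car9 separated the groups most clearly among the hypoxia genes. This gene (chromosome 4, 43506966 to 43513729) encodes carbonic anhydrase 9, a surface enzyme of pH control that is widely used as a marker of hypoxia. It had 156, 95.5 and 137 CPM in 170019, 170024 and 170025 and 7.32 and 6.87 CPM in 3800 and 3802. The KP tumors were almost equal here, the lowest dFLEx tumor was 13-fold above them, and the log2 fold change was 4.19 (SE 0.65, adjusted p 0.0744, edgeR), with 3.99 to 4.40 when a tumor was left out. It passed in edgeR with a mean of at least 1 CPM (adjusted p 0.0479), without a filter (0.000746) and with trends in GC content and length removed (0.0329). Car9 also passed in DESeq2 on tumor sums (adjusted p 1.21e-07). In edgeR it did not pass under DESeq2 size factors, library totals or the upper quartile, or without 170019, 170024 or 170025. Of its exonic bases 28.65% lie over the overlapping gene Gm12454, reads there were counted for neither, and Gm12454 had 9.33 to 12.2 CPM in dFLEx tumors against 0.244 and 0.605 CPM in KP tumors.

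Other induced genes gave smaller differences. Adm had 24.4, 33.1 and 45.8 CPM in the dFLEx tumors and 6.39 and 7.15 CPM in the KP tumors. At the closest, a dFLEx tumor exceeded a KP tumor 3.41-fold (log2 difference 2.34, SE 0.64, adjusted p 0.209, edgeR). Ankrd37 had 17.9, 9.14 and 7.03 CPM against 2.92 and 1.75 CPM, again without overlap (log2 fold change 2.28, SE 0.74, adjusted p 0.298, edgeR). Here 170019 was highest and 170025 lowest among dFLEx tumors, and 3802 had 43 counts. Of the exonic bases of Ankrd37 26.38% lie over Ufsp2 and Lrp2bp, and reads over several genes were not counted. Ndrg1, a stress gene induced by hypoxia, was even across 4 tumors, with 73.0 to 75.8 CPM in dFLEx tumors and 76.0 CPM in 3800, and was 33.4 CPM in 3802. The histone demethylase gene Kdm3a overlapped, with 46.1 to 160 CPM in dFLEx tumors against 18.4 and 49.2 CPM in KP tumors.

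Collagen hydroxylation and oxidative folding, both oxygen-requiring, are served by P4ha1, P4ha2 and Ero1a. P4ha2 had 121, 81.0 and 164 CPM in the dFLEx tumors and 55.6 and 17.2 CPM in the KP tumors, without overlap (log2 fold change 1.75, SE 0.72, adjusted p 0.441, edgeR). P4ha1 had 165, 186 and 510 CPM against 179 and 46.4 CPM, so that 3800 lay inside the dFLEx range (log2 fold change 1.35, SE 0.82). Ero1a overlapped too, with 33.7 to 281 CPM and 19.8 to 60.3 CPM. The sum of the 7 fibroblast markers, collagens among them, was highest in the same tumor as P4ha1 and Ero1a. It was 13198 CPM in 170025, 4057 and 6932 CPM in the other dFLEx tumors and 4426 and 1954 CPM in KP tumors. Dcn and Lum went the other way, with 438, 381 and 228 CPM and 140, 147 and 61.5 CPM in 170019, 170024 and 170025. The other genes of the list were highest in 170025. The part of fibroblasts in the P4ha1 and Ero1a values was not tested.

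Tumors of 1 group differed widely for these genes. In 22 of 40 genes 3800 was more than 2 times 3802, and in 2 genes 3802 was more than 2 times 3800, while over all tested genes 29.2% were more than 2 times as high in 3800. Of the 15 hypoxia genes 14 were higher in 3800 than in 3802, with Adm as the exception, against 46.3% of all tested genes. Tumors also differed in a trend with gene length. Over the 15243 genes at a mean of at least 1 CPM, Spearman's rho between a tumor's deviation from the mean log2 level and the gene's exonic length was 0.402 in 170025 and 0.352 in 3800, against -0.481 in 170019, -0.283 in 170024 and -0.175 in 3802, and its part in the order of tumors was not tested. These rho values are across genes, which are not independent replicates. The summed level of the hypoxia genes was 1127 CPM in 3800 and 361 CPM in 3802. Among dFLEx tumors 170025 was the highest in 11 of the 15 hypoxia genes and in 10 of the 25 glycolysis genes, against 38.5% of all tested genes, and 170024 was highest in 12 glycolysis genes. The summed hypoxia genes had 1213, 1274 and 2757 CPM in 170019, 170024 and 170025. In 19 of the 40 genes the dFLEx tumors spanned more than 2-fold. Duplicate libraries of a tumor were closer in the median, with a median coefficient of variation over the members of 1.64% to 5.56%. Single genes differed more in 170019, where the highest coefficient was 49.4% among members of 5 CPM or more. There Pgam1 had 98 and 47.3 CPM and Bnip3 had 111 and 69.6 CPM in the duplicates. The highest coefficients in 170024, 170025 and 3800 were 12.1%, 7.42% and 17.4%. For 3802 no duplicate was analysed.

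**Figure D4:**
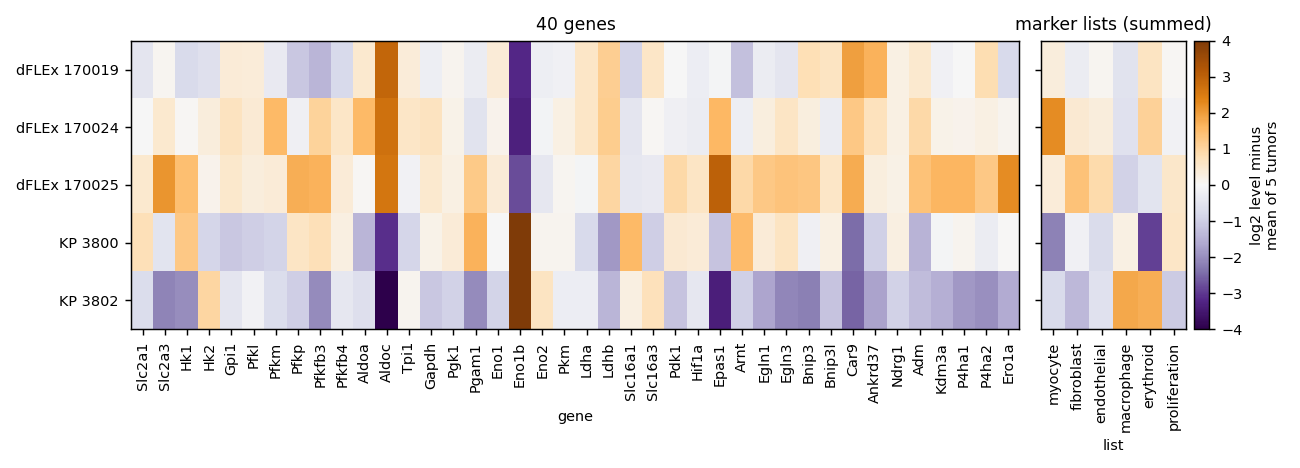
Level of the 40 genes and of 6 marker lists in each tumor, as log2 level minus the mean over the 5 tumors, with orange above and purple below that mean and the colors ending at 4 in either direction. The 3802 row is purple over nearly all hypoxia genes, the 170025 row is orange over most of them, and the myocyte list is darkest in 170024.

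The share of a paralog within its family does not depend on library scaling, and 14 shares in 12 families were compared. Tumors did not overlap in 6 of the 14. No share over other gene families is given beside this count, and the 3 phosphofructokinase shares depend on each other. Slc2a1 made up 89.1%, 89.3% and 79.5% of the Slc2a1 and Slc2a3 counts per kb in the dFLEx tumors and 96.6% and 97.0% in the KP tumors. Aldoa made up 86.4%, 93.8% and 85.4% of the aldolases against 99.1% and 99.9%. Ldha made up 86.6%, 86.4% and 82.2% of the lactate dehydrogenases against 95.2% and 95.6%. In these 3 families the dominant form remained dominant in every tumor, and the minor form took a larger share in dFLEx tumors. Epas1 made up 41.2%, 69.0% and 76.6% of the Hif1a and Epas1 counts per kb in 170019, 170024 and 170025, with Hif3a left out. In 3800 and 3802 it made up 17.5% and 7.49%. Epas1 was thus larger than Hif1a in 2 of the 3 dFLEx tumors and in neither KP tumor. Bnip3 made up 39.9% to 49.4% of the Bnip3 and Bnip3l counts per kb in dFLEx tumors and 22.5% to 30.4% in KP tumors, with the similar copies of Bnip3 left out. Eno2 stayed at 1.15% or less of Eno1 plus Eno2, with Eno1b left out of the family. Eno1b had 154 and 81.8 CPM per kb in 3800 and 3802, beside 169 and 91.7 CPM per kb for Eno1. Adding Eno1b would lower the Eno2 share in KP tumors and hardly in dFLEx tumors. Whether the Eno2 shares would then stay apart was not tested. For each of the 6, the exact two-sided permutation test over tumors gave p = 0.2, the smallest that 3 against 2 tumors can give, and 0.467 after Benjamini-Hochberg adjustment over the 14. The other 8 shares overlapped, among them Hk2, Slc16a3, Egln3 and the 3 phosphofructokinases.

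**Figure D5:**
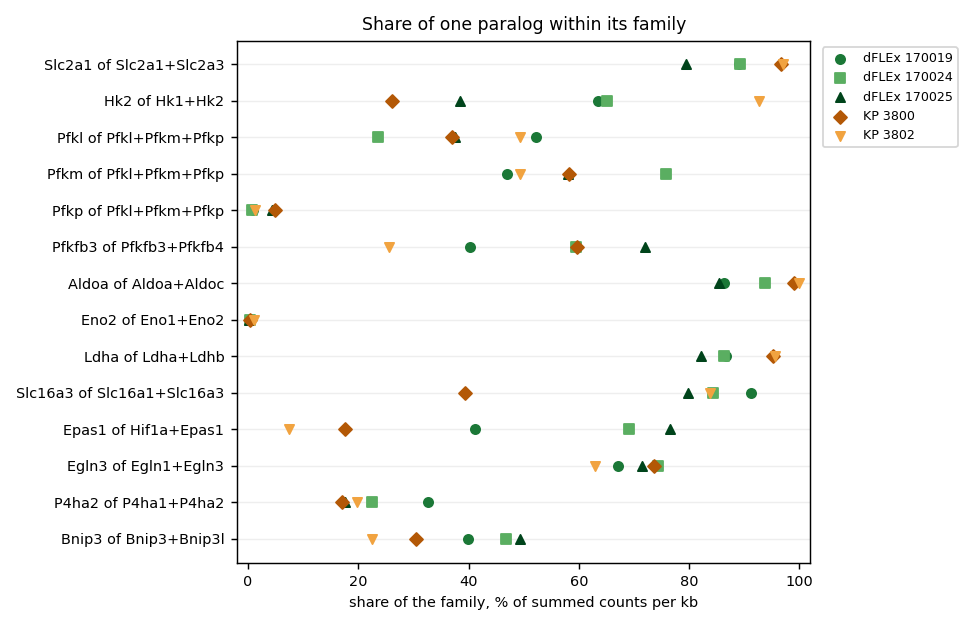
Share of 1 paralog within its family in each tumor, in percent of the summed counts per kb. Green symbols are dFLEx tumors and orange symbols KP tumors, and the 2 colors do not overlap for Slc2a1, Aldoa, Eno2, Ldha, Epas1 and Bnip3.

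Further genes of the pathways were taken from lists of 38 other glycolysis and 50 other hypoxia genes. Of the 85 different genes tested, none passed in edgeR, with a lowest adjusted p of 0.122, and 20 had an unadjusted p under 0.05, 17 higher and 3 lower, against 10.6% of all tested genes. DESeq2 on tumor sums called 13 and limma-voom 7, where 3.16% and 2.78% of all genes were called. The dFLEx tumors were all higher in 30 of them (35.3%) and all lower in 7 (8.24%), against 13.7% and 11.7% of all tested genes. The median log2 fold change was 0.50 over the other glycolysis genes and 0.78 over the other hypoxia genes.

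Among the other glycolysis genes at a mean of at least 1 CPM, the largest positive log2 fold changes were those of Fbp2, Slc2a4 and Pgam2. Fbp2, muscle fructose bisphosphatase, had 4.83, 7.72 and 5.88 CPM in dFLEx tumors against 0.0806 and 0.528 CPM in KP tumors (log2 fold change 4.41, SE 1.04, adjusted p 0.159, edgeR). Slc2a4 (GLUT4), the insulin-responsive glucose transporter of muscle and fat, had 28.6, 98.5 and 42.7 CPM against 4.43 and 9.47 CPM (3.03, SE 0.82, adjusted p 0.209, edgeR). Pgam2, the muscle mutase, had 260, 979 and 176 CPM against 18.7 and 200 CPM, and Eno3, the muscle enolase, had 497, 1555 and 424 CPM against 365 and 420 CPM. All 4 were highest in 170024, where the myocyte markers summed to 39381 CPM, as were Aldoa and Pfkm. The part of muscle RNA in these values was not tested. Without 170024 the log2 fold change was 1.26 for Aldoa and 0.83 for Pfkm.

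The most negative log2 fold changes at the same minimum were those of Slc2a6, G6pdx and Hk3. Slc2a6 (GLUT6) had 1.17, 1.08 and 1.70 CPM against 6.61 and 10.9 CPM (log2 fold change -2.73, SE 0.65, adjusted p 0.159, edgeR). Hk3, a hexokinase of myeloid cells, had 2.56, 5.57 and 5.09 CPM against 6.69 and 15.5 CPM (-1.33, SE 0.68). The 8 macrophage markers summed to 863, 845 and 669 CPM in dFLEx tumors and to 1503 and 4523 CPM in KP tumors, with 7 of 8 below 0 in log2 fold change, and their part in Slc2a6 and Hk3 was not tested. G6pdx, which opens the pentose phosphate pathway, had 7.84, 12.7 and 31.2 CPM against 79.6 and 9.14 CPM, so only 3800 stood out (-1.36, SE 0.96).

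Among the other hypoxia genes at a mean of at least 1 CPM, the largest positive log2 fold changes were those of Hif3a, Stc2 and Ppp1r3c. Hif3a, a further HIF alpha gene whose products can oppose the others, had 4.95, 7.72 and 38.5 CPM in dFLEx tumors against 0.215 and 1.02 CPM in KP tumors (log2 fold change 4.84, SE 1.31, adjusted p 0.208, edgeR). Stc2, a secreted stanniocalcin, had 100, 73.2 and 188 CPM against 13.6 and 5.12 CPM (3.68, SE 0.81, adjusted p 0.131, edgeR). Ppp1r3c, which targets a phosphatase to glycogen, had 44.1, 66.2 and 65.2 CPM against 3.71 and 8.05 CPM (3.32, SE 0.70, adjusted p 0.122, edgeR). In all 3 the groups were separate. The most negative were those of Tpbg, Ppfia4 and Arnt2. Tpbg, a trophoblast glycoprotein, had 6.17, 5.39 and 5.71 CPM against 40.1 and 25 CPM (-2.50, SE 0.57, adjusted p 0.144, edgeR). Ppfia4, a liprin, had 7.99, 9.00 and 6.42 CPM against 33.2 and 44.8 CPM (-2.32, SE 0.56, adjusted p 0.168, edgeR). Arnt2, a relative of Arnt, had 0.423, 0.988 and 2.86 CPM against 8.38 and 0.650 CPM and overlapped (-1.66, SE 1.16).

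Marker lists of other cells and of proliferation are given for context. Of their 66 genes in the table, 0 passed in edgeR and 17 had an unadjusted p under 0.05, against 0.182% and 10.6% of all tested genes. DESeq2 on tumor sums called 4 and limma-voom 7, against 3.16% and 2.78% of the genes in those fits. The 8 proliferation genes overlapped between groups in 8 of 8, against 18457 of 24743 tested genes. They summed to 704 to 1136 CPM in the dFLEx group, 1162 CPM in 3800 and 371 CPM in 3802. Every dFLEx tumor was above both KP tumors in 5 of the 6 adipocyte markers, against 13.7% of all tested genes. These markers summed to 186 to 238 CPM against 7.99 and 80.2 CPM. Erythroid markers summed to 377 to 1121 CPM against 70.3 and 1794 CPM, and neutrophil markers to 7.59 to 54.6 CPM against 7.39 and 40.6 CPM. The lists for proliferation and hypoxia were both at their lowest in 3802, and how far either moved with the other was not tested.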

How the data were processed

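The authors trimmed reads with Trimmomatic (version 0.39), aligned them with STAR (version 2.7.10a) to mm39 extended by the transgene, and deposited raw counts per gene from featureCounts (version 2.0.3). Per the file headers, chimeric pairs, reads with several alignments and reads over several genes were left out, strand was ignored and each mate was counted. Symbols were joined from GENCODE M39 for 98.7% of features, and coordinates are those of the table (GRCm39).

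Duplicates were added up per tumor. The edgeR (version 4.0.16) quasi-likelihood test (glmQLFit, glmQLFTest) was run after filterByExpr and TMM scaling, p-values were adjusted by Benjamini-Hochberg across the whole tested table, and 0.05 was the threshold. SE was derived from the fold change and its F statistic (log2 fold change over the root of F). Library totals ran from 20503474 to 46302223 counts. Alternatives used DESeq2 (version 1.42.0), limma (version 3.58.1), other scalings and filters, and each tumor left out. Shares were compared with SciPy (version 1.17.1). Copies were found with blastn (version 2.17.0). The authors' methods name DESeq2 without saying how duplicates were treated. The dFLEx tumors bear mouse numbers that the study's supplementary data list as separate animals, and the KP tumors were known here by separate identifiers only, so p-values measure the spread between these tumors.

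The members and gene lists were chosen with earlier results of these data known. Named in every tumor were members past the threshold, members without overlap and over 1 in log2 fold change, the most abundant gene of each role per kb, and Hif1a, Epas1, Arnt, Egln1, Egln3, Car9 and Eno1b; of the other pathway lists the 3 largest rises and falls at a mean of at least 1 CPM, Eno3 and Pgam2. Marker lists covered myocyte, erythroid, endothelial, macrophage, neutrophil, fibroblast, adipocyte and proliferation genes.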

Additional observations from a re-analysis of the deposited data

How the results depend on the processing

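The count of members past the threshold (1) depended on the unit of replication, the test and the filter. Taking the 9 libraries as independent samples gave 13 members, 22 other pathway genes and 3344 genes in all, and adding the duplicate number as a replicate block gave 10, 18 and 2476 (12.7% of genes tested). The duplicate numbers did not pair the samples, since the deviations of same-numbered libraries correlated at -0.017 to 0.0811 over 6 pairs of tumors. With limma-voom and random effects for tumors the counts were 7, 7 and 544, from DESeq2 applied to tumor sums 6, 13 and 1404, with no filter 4, 6 and 880, and removal of the GC content and length trend, chosen after seeing the data, 3, 2 and 183. A mean of at least 1 CPM gave 3 members and 80 genes in all, and DESeq2 size factors, the upper quartile and counts divided by 2 (also chosen after seeing the data) gave 2 members each. Eno1b passed in each of these fits. With a tumor left out the counts ran from 0 to 2 for members, from 0 to 1 for other pathway genes and from 0 to 414 for all genes, and no gene passed without 170019 or without 170024. Without 3802 the members called were Eno1b and Aldoc. Members without overlap between groups (18) fell to 14 under library totals, 16 under the upper quartile and 17 under DESeq2 size factors. With a tumor left out they ran from 19 to 36, the 36 being without 3800. Shares without overlap (6) ran from 6 to 10 with a tumor left out, the 10 being without 3802. The cause of these shifts was not tested, except that fewer tumors make separation easier by construction.

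Of 45 named genes, 34 kept the direction of their log2 fold change with each tumor left out. The other 11 changed sign at least once, with ranges of -0.70 to 0.91 for Slc2a1, -0.83 to 0.88 for Hk2, -0.21 to 1.26 for Pgk1, -1.31 to 2.57 for Pgam1, -0.04 to 0.48 for Pkm, -0.43 to 1.14 for Slc16a3, -0.11 to 1.67 for Pdk1, -0.31 to 0.67 for Hif1a, -1.42 to 1.22 for Arnt, -2.19 to 1.09 for G6pdx and -2.67 to 1.31 for Arnt2. In other settings Pgam1 reversed under limma-voom (0.12), and Pkm under library totals (-0.16), the upper quartile (-0.04), a mean of at least 1 CPM (-0.02) and the trend removed (-0.19). Slc16a3 reversed under DESeq2 size factors (-0.09), library totals (-0.34), the upper quartile (-0.33), a mean of at least 1 CPM (-0.24), DESeq2 (-0.06), counts divided by 2 (-0.09) and the trend removed (-0.35). Hif1a reversed with independent libraries (-0.10), the replicate block (-0.11), DESeq2 size factors (-0.02), library totals (-0.21), the upper quartile (-0.10), a mean of at least 1 CPM (-0.08), limma-voom (-0.05), DESeq2 (-0.01) and counts divided by 2 (-0.01). The lone 3802 library, with 20503474 counts, limits what KP values can show.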
